A study of Homo sapiens with 12 samples.

Results

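The Wnt ligands and the genes that release them were followed through hematopoietic differentiation of H1 cells, a widely used line of human embryonic stem cells (hESCs). The 9 genes were taken by symbol from the table of expression values, which lists 56593 distinct symbols. They comprise 6 Wnt ligands (WNT3, WNT3A, WNT8A, WNT5A, WNT5B and WNT11), the R-spondin RSPO3, and the secretion genes PORCN and WLS. RNA-seq had been made from 4 populations with 3 libraries each, 12 in total. Undifferentiated H1 cells were compared with H1-derived APLNR+ mesoderm cells sorted at day 2, CD31+CD34+ hemogenic endothelial progenitors (HEPs) sorted at day 5 and CD43+ hematopoietic progenitor cells (HPCs) sorted at day 8. The differentiating cultures had received BMP4 and activin A for the first 2 days and then VEGF and bFGF. All libraries derive from a single cell line, and the labels do not say whether replicates were separate cultures, so the p-values measure only the spread between these libraries.

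Wnt proteins are secreted lipid-modified ligands that bind Frizzled receptors on the cell surface. One branch of the pathway stabilizes β-catenin, which then acts with TCF/LEF factors on target genes, and WNT3, WNT3A and WNT8A are commonly placed in it. WNT5A, WNT5B and WNT11 are better known for signaling without β-catenin, in which ROR2 and related receptors take part. PORCN attaches the lipid in the endoplasmic reticulum, WLS carries the modified ligand to the cell surface, and R-spondins such as RSPO3 raise the amount of Wnt receptor by binding LGR receptors. In the early embryo Wnt signals from the primitive streak take part in the formation of mesoderm, from which endothelium and blood arise.

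Expression is given as FPKM, a fragment count corrected for transcript length and sequencing depth. FPKM carries no read totals, so absolute depth is unknown, and relative depth read from the lowest values ranged from 0.555 to 1.27 with replicate 1 the shallowest library of each population. Between 12313 and 13084 table lines reached 1 FPKM in a library. The summed FPKM of a library ranged from 568036 (CD31+CD34+ replicate 2) to 1.58e+06 (APLNR+ replicate 2). It also differed within a population, being 1.44e+06 in CD31+CD34+ replicate 1. The values were used as listed, without scaling between libraries, except where a scaling is named. A listed 0 can be a failed estimate in this table. Among the 108 values of the 9 genes 8 were listed at 0, all in populations where the gene's highest library was at most 0.101 FPKM. The labels were checked against marker genes. Pluripotency markers POU5F1, NANOG, SOX2 and DPPA4 summed to between 1378 and 1447 FPKM in H1, endothelial markers to between 427 and 588 FPKM in CD31+CD34+ cells and blood markers to between 164 and 225 FPKM in CD43+ cells. Of the mesoderm markers APLNR itself did not set the populations apart, at 359 to 402 FPKM in APLNR+ and 381 to 429 FPKM in CD31+CD34+ cells, whereas MESP1 (21.8 to 32.3 FPKM), MIXL1 (48.1 to 83.4 FPKM) and EOMES (51.5 to 59.1 FPKM) in APLNR+ cells were at most 1.40, 1.28 and 4.18 FPKM in CD31+CD34+ cells. The blood gene PTPRC, which encodes CD45, was at most 0.521 FPKM in CD43+ cells.

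Genes were compared on the log2(FPKM + 1) scale, which understates changes at low levels. A gene entered the test when it reached 1 FPKM in at least 3 libraries, and 14840 genes did so. A call needed an adjusted p under 0.05 from limma together with a change of 2-fold or more. Of the 9 genes, 7 were tested, while WNT3A and RSPO3 reached 1 FPKM in 0 libraries. An exact permutation test on single genes could not go below p = 0.1 with 3 libraries against 3.

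From H1 to APLNR+ cells, 5 of the 7 tested genes rose and 0 fell, where 8.3% of all tested genes rose and 7.62% fell. These 5 genes were WNT3, WNT8A, WNT5A, WNT5B and WLS, of which WNT8A was tested only because its 3 APLNR+ libraries exceeded 1 FPKM and so adds nothing to the comparison with that share. Their promoters are printed here because the genes rose at the same step. Each is the RefSeq window of 300 bases (250 before and 50 after an annotated start, assembly GRCh38.p14), read 5′ to 3′ on the gene's strand. For genes with several annotated starts the most upstream window is shown, and the FPKM values do not tell the starts apart.
WNT3, chr17:46818643-46818942, minus strand: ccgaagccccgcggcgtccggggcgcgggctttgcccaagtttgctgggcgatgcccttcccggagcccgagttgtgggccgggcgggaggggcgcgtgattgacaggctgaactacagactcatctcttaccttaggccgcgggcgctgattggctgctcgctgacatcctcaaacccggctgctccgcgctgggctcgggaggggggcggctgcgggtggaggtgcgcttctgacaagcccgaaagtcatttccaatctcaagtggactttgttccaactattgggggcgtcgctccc
WNT8A, chr5:138083783-138084082, plus strand: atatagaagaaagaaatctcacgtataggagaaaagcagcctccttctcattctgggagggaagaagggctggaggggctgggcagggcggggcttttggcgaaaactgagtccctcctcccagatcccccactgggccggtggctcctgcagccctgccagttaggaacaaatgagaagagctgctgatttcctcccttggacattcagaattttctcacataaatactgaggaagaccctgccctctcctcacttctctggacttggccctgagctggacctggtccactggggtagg
WNT5A, chr3:55487257-55487556, minus strand: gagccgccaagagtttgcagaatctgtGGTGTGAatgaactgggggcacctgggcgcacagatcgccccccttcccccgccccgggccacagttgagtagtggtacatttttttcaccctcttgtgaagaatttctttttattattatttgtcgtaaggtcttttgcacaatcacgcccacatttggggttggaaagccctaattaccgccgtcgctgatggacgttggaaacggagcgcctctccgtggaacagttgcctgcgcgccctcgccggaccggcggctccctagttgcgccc
WNT5B, chr12:1616806-1617105, plus strand: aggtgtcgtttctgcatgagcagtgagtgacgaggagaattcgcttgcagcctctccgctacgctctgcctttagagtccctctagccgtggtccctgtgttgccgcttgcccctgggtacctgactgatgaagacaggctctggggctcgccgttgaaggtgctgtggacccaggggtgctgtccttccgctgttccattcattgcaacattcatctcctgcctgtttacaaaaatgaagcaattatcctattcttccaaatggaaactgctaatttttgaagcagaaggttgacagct
WLS, chr1:68232497-68232796, minus strand: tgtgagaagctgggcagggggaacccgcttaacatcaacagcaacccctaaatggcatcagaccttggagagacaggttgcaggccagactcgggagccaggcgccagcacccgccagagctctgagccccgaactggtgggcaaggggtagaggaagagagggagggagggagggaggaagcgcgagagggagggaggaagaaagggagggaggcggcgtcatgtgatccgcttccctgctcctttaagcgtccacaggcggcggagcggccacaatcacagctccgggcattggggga
Capitals mark a match to the letters of a searched motif. Over 35116 RefSeq promoter windows, searched on both strands, the TCF/LEF core CTTTGA stood in 12.92%. The T-box core letters GGTGTGA stood in 3.449% of the same windows. The letters AGATAA, bound by GATA factors, stood in 10.33%. The WNT5A window carries GGTGTGA 223 bases before the start and neither other motif. The other printed windows carry none of the 3 motifs. Across the 12 windows listed for 8 of the 9 genes a match occurred in 2, the other being CTTTGA 9 bases before a PORCN start. GC content was 65.67% in WNT3, 54.67% in WNT8A, 56.33% in WNT5A, 51.67% in WNT5B and 63.33% in WLS, beside a median of 58.67% over all windows. The CpG count set WNT3 (28) and WNT5A (21) above the median of 14, and WNT8A (4) and WNT5B (10) below it. A match is a run of letters and does not show that a factor binds there.

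WNT3, a ligand of the β-catenin branch that is expressed in the primitive streak, was the most abundant of the 3 ligands of that branch. H1 replicates 1 to 3 held 0.105, 0.0923 and 0.106 FPKM, whereas APLNR+ replicates held 3.59, 4.03 and 3.98 FPKM. CD31+CD34+ cells gave 1.72, 2.29 and 1.86 FPKM and CD43+ cells 0.267, 0.342 and 0.199 FPKM. All APLNR+ libraries lay above all others, and none of the neighboring populations in the order APLNR+, CD31+CD34+, CD43+, H1 overlapped. The rise to APLNR+ cells was 2.14 ± 0.09 on the log2 scale (SE, limma adjusted p 1.8e-09), a 38.3-fold difference of mean FPKM. The APLNR+ mean was then 1.97 times the CD31+CD34+ mean, and this difference (log2 change -0.72, adjusted p 1.78e-05) did not reach 2-fold on the log2(FPKM + 1) scale. From CD31+CD34+ to CD43+ cells WNT3 fell by 1.22 on the log2 scale (SE 0.09, limma adjusted p 3.67e-07). CD43+ cells differed from H1 by 0.20 (adjusted p 0.062, 95% interval 0.00 to 0.40). This difference was 0.86 with a pseudocount of 0.1 (adjusted p 0.00133), and its adjusted p was 0.0218, 0.0183 and 0.0137 under upper-quartile, median-ratio and quantile scaling, under 2-fold in each of these settings. The smaller pseudocount also gave 4.30 for the rise to APLNR+ cells and -2.49 for the last step.

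WNT3A, the closest relative of WNT3, was near absent from the values. Its highest library was APLNR+ replicate 1 at 0.0787 FPKM, and the 3 H1 libraries ranged from 0.0221 to 0.0730 FPKM. H1 and APLNR+ libraries overlapped, and 2 of the 3 CD43+ libraries were listed at 0. Without the filter on low values the difference between H1 and APLNR+ cells was 0.02 (limma adjusted p 0.552). The APLNR+ libraries lay above the CD31+CD34+ libraries, which reached 0.0295 FPKM, and the log2 change between these populations was -0.06 (adjusted p 0.0282). CD43+ cells differed from H1 by -0.06 (adjusted p 0.024) and from APLNR+ cells by -0.08 (adjusted p 0.00666). All of these were far under 2-fold on this scale.

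WNT8A, a ligand gene of early mesoderm in vertebrate embryos, was seen in APLNR+ cells at 1.41, 1.77 and 1.72 FPKM. The 9 libraries of the other populations held at most 0.101 FPKM and 4 of them were listed at 0. The APLNR+ libraries thus stood apart, and the other 3 populations overlapped one another. The gene rose by 1.36 ± 0.08 from H1 to APLNR+ cells (SE, limma adjusted p 2.4e-08) and fell by 1.34 from APLNR+ to CD31+CD34+ cells (adjusted p 2.14e-08), and with a pseudocount of 0.1 these changes were 3.84 and -3.69. These steps share the APLNR+ libraries. WNT8A passed the filter only through those 3 libraries, so it had to differ once it was tested, and it is not tested when any one of them is left out.

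WNT5A, a ligand that signals mainly without β-catenin, was the most abundant Wnt ligand in APLNR+ cells. H1 replicates held 0.680, 0.389 and 0.504 FPKM and APLNR+ replicates 57.7, 48.3 and 47.3 FPKM. CD31+CD34+ cells held 2.42, 3.10 and 3.12 FPKM and CD43+ cells 1.45, 1.23 and 1.06 FPKM. The APLNR+ libraries were far above every other library, and no neighboring populations overlapped. WNT5A rose by 5.09 ± 0.12 (SE, limma adjusted p 1.5e-11), a 97.4-fold difference of means, and placed between the 91.6 and 93.6 percentile of the tested genes in APLNR+ libraries. It then fell by 3.75 on the log2 scale (adjusted p 1.75e-10), a 17.7-fold difference of means. From CD31+CD34+ to CD43+ cells the change was -0.78 (adjusted p 0.000182) and was not called, but with a pseudocount of 0.1 in place of 1 it was -1.14 and passed the 2-fold limit. CD43+ cells differed from H1 by 0.56 (adjusted p 0.00114), again under 2-fold, and by 1.13 with the smaller pseudocount.

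WNT5B, the paralog of WNT5A, was highest in CD43+ cells. H1 replicates were at 0.428, 0.321 and 0.296 FPKM, APLNR+ replicates at 13.3, 13.2 and 12.7 FPKM, CD31+CD34+ replicates at 13.03, 12.02 and 11.24 FPKM and CD43+ replicates at 51.3, 58.3 and 47.5 FPKM. APLNR+ and CD31+CD34+ libraries overlapped, while H1 lay below and CD43+ above all others. The gene rose by 3.38 ± 0.10 from H1 to APLNR+ cells (SE, limma adjusted p 5.12e-11). Between APLNR+ and CD31+CD34+ cells the change was -0.10 (95% interval -0.31 to 0.11, adjusted p 0.349). It rose again by 2.02 ± 0.10 from CD31+CD34+ to CD43+ cells (adjusted p 7.03e-09), a 4.33-fold difference of means. CD43+ cells were 5.30 above H1 (adjusted p 7.75e-13), the largest difference between these populations among the 7 tested genes on the log2(FPKM + 1) scale. As a difference of mean FPKM it was 150-fold, below the 242-fold of WNT11.

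WNT11, a further ligand of the branch without β-catenin, was highest in CD31+CD34+ cells. H1 replicates were at 0.0772, 0.0590 and 0.0168 FPKM and APLNR+ replicates at 0.590, 0.393 and 0.568 FPKM. The gene stood at 22.3, 21.6 and 20.7 FPKM in CD31+CD34+ cells and at 12.2, 13.7 and 11.2 FPKM in CD43+ cells. No neighboring populations overlapped, and all H1 and APLNR+ libraries were below 1 FPKM. The rise from APLNR+ to CD31+CD34+ cells was 3.90 ± 0.10 (SE, limma adjusted p 2.21e-11), a 41.7-fold difference of means. The earlier change from H1 to APLNR+ cells was 0.53 (adjusted p 0.000555), below the 2-fold limit, and 2.04 with a pseudocount of 0.1. From CD31+CD34+ to CD43+ cells the change was -0.76 (adjusted p 3.54e-05), also below it. CD43+ cells were 3.66 above H1 (adjusted p 1.31e-11), or 6.38 with the smaller pseudocount.

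The sum of endothelial marker transcripts had the same order of populations as WNT11. The 5 markers (PECAM1, CD34, CDH5, KDR and TEK) summed to 27.3 to 33.5 FPKM over the H1 libraries, 51.5 to 69.1 over APLNR+, 427 to 588 over CD31+CD34+ and 236 to 317 over CD43+ libraries. Single markers did not all keep this order. PECAM1 was higher in CD43+ (82.6 to 104 FPKM) than in CD31+CD34+ cells (50.9 to 59.0 FPKM). TEK was lower in APLNR+ (3.66 to 4.45 FPKM) than in H1 cells (6.33 to 7.40 FPKM). PECAM1 and CDH5 were at most 0.279 FPKM in H1 and APLNR+ cells. All 5 markers were at 17.4 FPKM or more in every CD43+ library. In bulk samples fewer cells of a type and less RNA per cell cannot be told apart, and the part of endothelial transcripts in the WNT11 and WNT5B levels of CD43+ cells was not tested. Of the 5 cardiac and smooth muscle markers, whose sum was highest in CD43+ cells (40.0 to 61.7 FPKM, against 24.9 to 30.3 in CD31+CD34+, 14.3 to 17.1 in APLNR+ and 8.13 to 9.69 in H1), ACTA2 (27.1 to 40.5 FPKM) and PDGFRB (12.5 to 20.6 FPKM) made up most. The defining genes TNNT2 and MYH11 were at most 0.0726 and 0.0631 FPKM there, MYH6 was at most 0.452 FPKM, and their part in the WNT5B rise was not tested. The 3 neural markers PAX6, SOX1 and NEUROD1 were listed at 0 in every CD43+ library.

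**Figure D1:**
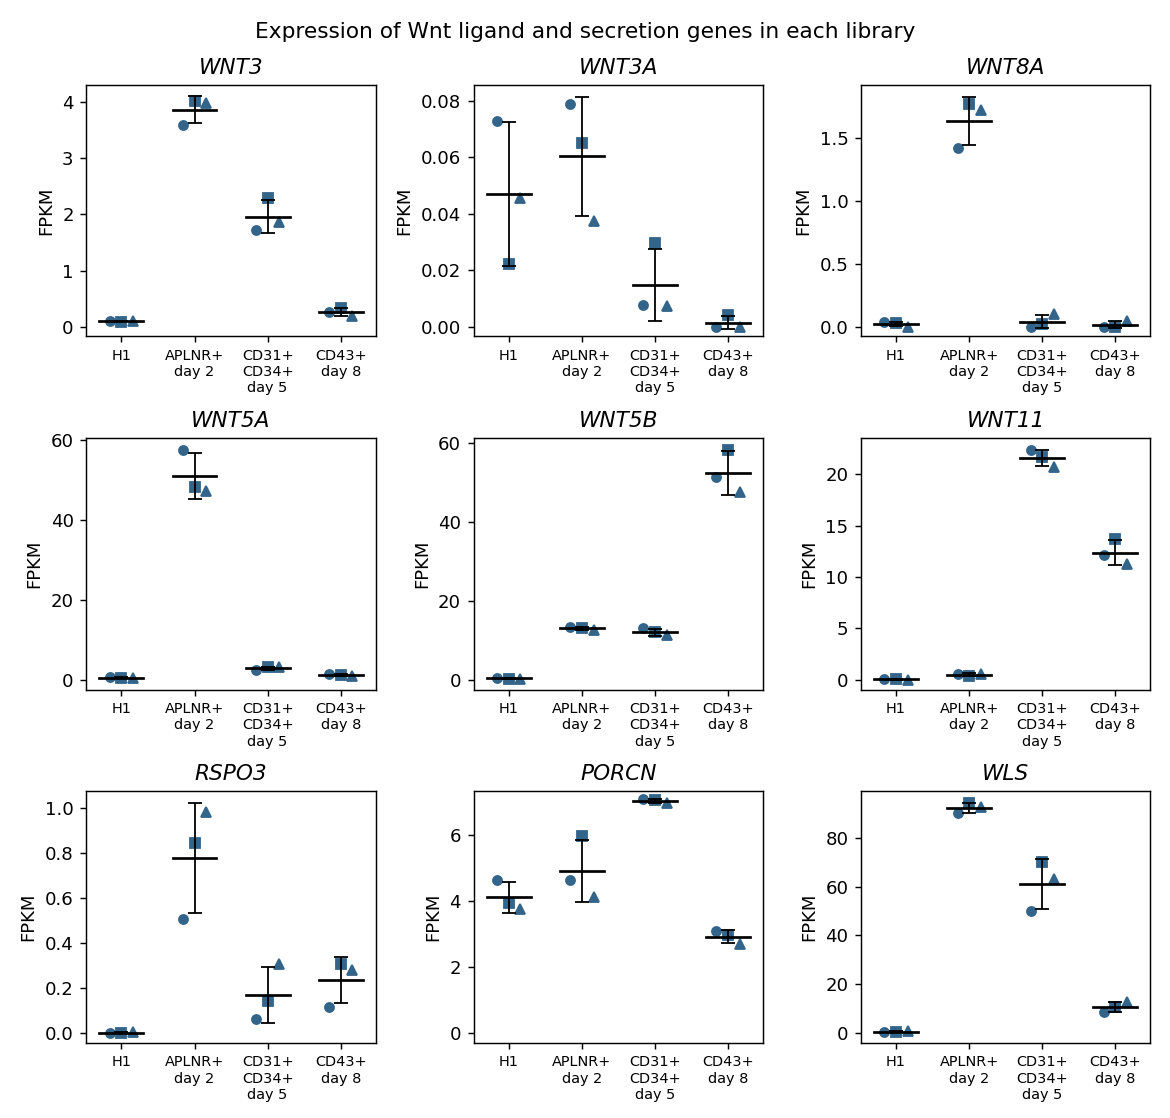
FPKM (vertical axis, linear, a separate scale in each panel) of the 9 genes in the 4 populations. Circles, squares and triangles are replicates 1, 2 and 3, bars are the mean and error bars the SD (n = 3). WNT5A and WLS peak in APLNR+ cells, WNT11 in CD31+CD34+ cells and WNT5B in CD43+ cells, while WNT3A stays below 0.08 FPKM.

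The plot of the 9 genes by library shows 3 orders among the better expressed ligands. The makeup of the ligand transcripts follows from them and was described as the share of each gene in the summed FPKM of all 19 Wnt ligand genes. In H1 the sum was 1.72 ± 0.173 FPKM, and it was 80.7 ± 6.83 FPKM for APLNR+, 40.3 ± 1.05 FPKM for CD31+CD34+ and 66.7 ± 6.77 FPKM for CD43+ cells (SD, n = 3). In APLNR+ cells WNT5A held 63.2 ± 2.05% and WNT5B 16.2 ± 1.04% of it. In CD31+CD34+ cells WNT11 held 53.5 ± 0.709%, WNT5B 30.0 ± 1.51% and WNT5A 7.16 ± 1.12%. In CD43+ cells WNT5B held 78.5 ± 0.329% and WNT11 18.5 ± 0.0413%. The leading ligand was thus a different gene in each sorted population, in all 3 of its libraries.

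The ratio of WNT5A to WNT5B FPKM lay between 1.21 and 1.70 in H1, between 3.66 and 4.35 in APLNR+ cells, between 0.186 and 0.277 in CD31+CD34+ cells and between 0.0212 and 0.0283 in CD43+ cells. None of these ranges overlapped. WNT3, WNT3A and WNT8A together held 5.09, 5.86 and 5.74 FPKM in the APLNR+ libraries, against 71.5, 61.9 and 60.5 FPKM for WNT5A, WNT5B and WNT11 together. In CD43+ cells the former sum was at most 0.346 FPKM and the latter at least 59.7 FPKM.

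**Figure D2:**
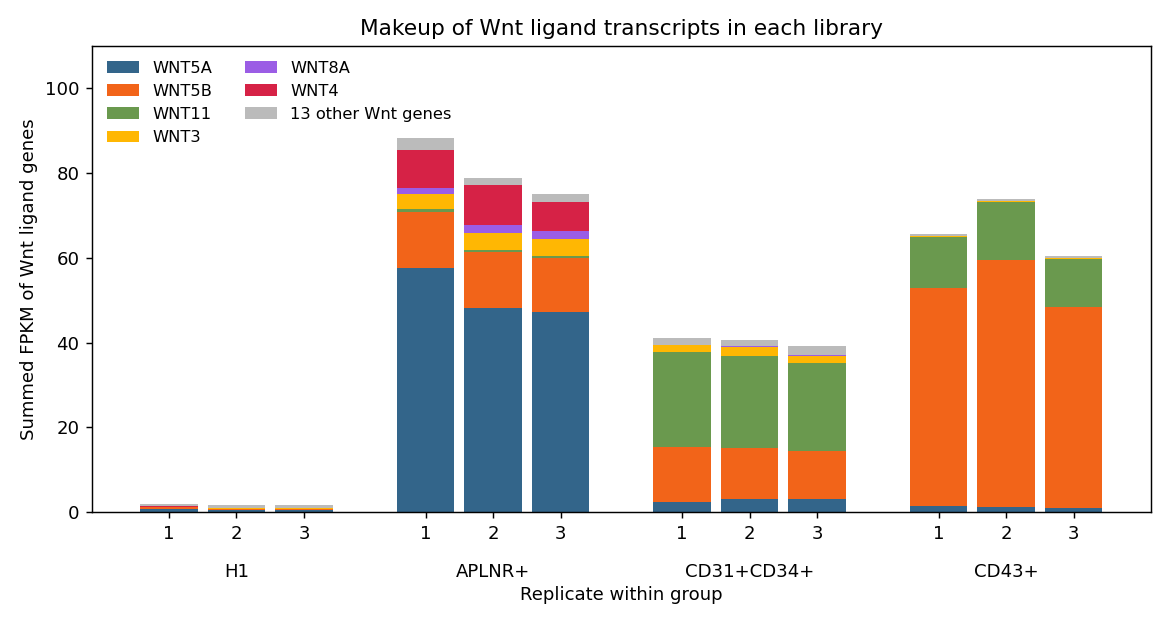
Summed FPKM of the 19 Wnt ligand genes (vertical axis, linear, from 0) in each of the 12 libraries (horizontal axis, replicates 1 to 3 of each population), divided by gene. WNT5A fills most of the APLNR+ bars, WNT11 most of the CD31+CD34+ bars and WNT5B most of the CD43+ bars, and the H1 bars reach at most 1.91 FPKM.

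RSPO3, a secreted enhancer of Wnt signaling, stayed below 1 FPKM in every library. H1 replicates 1 and 2 were listed at 0 and replicate 3 at 0.00384 FPKM, and APLNR+ cells gave 0.505, 0.841 and 0.983 FPKM. CD31+CD34+ cells gave 0.0618, 0.144 and 0.305 FPKM and CD43+ cells 0.117, 0.307 and 0.280 FPKM. The APLNR+ libraries were the highest, and CD31+CD34+ and CD43+ libraries overlapped. Without the filter on low values the change from H1 to APLNR+ cells was 0.82 ± 0.11 (SE, limma adjusted p 0.000264) and that from APLNR+ to CD31+CD34+ cells -0.60 (adjusted p 0.00139), both under 2-fold on the log2(FPKM + 1) scale. Its relative RSPO2 was low in APLNR+ cells (0.276 to 0.432 FPKM) and reached 4.09, 7.18 and 5.79 FPKM in CD31+CD34+ cells. RSPO2 changed by 2.30 on the log2 scale at that step and by -2.23 to CD43+ cells, and it passed the filter only through the 3 CD31+CD34+ libraries, so that it had to differ once it was tested.

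PORCN, the acyltransferase that Wnt ligands need for release, was the only one of the 9 genes above 1 FPKM in all 12 libraries. H1 replicates held 4.64, 3.94 and 3.77 FPKM, APLNR+ replicates 4.65, 5.97 and 4.14 FPKM. They held 7.09, 7.08 and 6.96 FPKM in CD31+CD34+ cells and 3.10, 2.97 and 2.70 FPKM in CD43+ cells. H1 and APLNR+ libraries overlapped, CD31+CD34+ libraries were the highest and CD43+ libraries the lowest. The change from H1 to APLNR+ cells was 0.20 (95% interval -0.05 to 0.46, limma adjusted p 0.162), and the next was 0.45 (adjusted p 0.00395), under 2-fold. From CD31+CD34+ to CD43+ cells PORCN fell by 1.04 ± 0.12 (SE, adjusted p 1.35e-05). That call was at the limit: it was lost at -0.99 under median-ratio scaling and at -0.995 without CD43+ replicate 3.

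WLS, the carrier of lipid-modified Wnt ligands, had the largest change of the 7 tested genes from H1 to APLNR+ cells. H1 replicates held 0.410, 0.552 and 0.627 FPKM and APLNR+ replicates 90.0, 94.2 and 92.5 FPKM. CD31+CD34+ replicates held 49.8, 69.9 and 63.2 FPKM and CD43+ replicates 8.74, 10.8 and 12.6 FPKM. No neighboring populations overlapped, and replicate 1 was the lowest library in each population. WLS rose by 5.93 ± 0.14 (SE, limma adjusted p 1.32e-11), a 174-fold difference of means, and stood between the 95.8 and 96.0 percentile of the tested genes in APLNR+ libraries. The change to CD31+CD34+ cells was -0.60 (adjusted p 0.00194) and under 2-fold. WLS then fell by 2.40 to CD43+ cells (SE 0.14, adjusted p 3.83e-08), where it was still 2.93 above H1 (adjusted p 1.87e-09).

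The secretion genes therefore differed in range. The ratio of WLS to PORCN FPKM was 0.0884 to 0.166 for H1, 15.8 to 22.4 for APLNR+, 7.03 to 9.87 for CD31+CD34+ and 2.82 to 4.67 for CD43+ libraries, with no overlap between populations. In CD43+ cells, where WNT5B was highest, WLS and PORCN were both below their CD31+CD34+ levels in all 3 libraries.

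Over the 3 consecutive steps the counts of called genes were 5 raised and 0 lowered, then 1 raised and 2 lowered, then 1 raised and 3 lowered, of the same 7 tested. From APLNR+ to CD31+CD34+ cells WNT11 rose while WNT5A and WNT8A fell, where 12.5% of all tested genes rose and 17.1% fell. From CD31+CD34+ to CD43+ cells WNT5B rose while WNT3, PORCN and WLS fell, beside 5.58% and 8.79% of all tested genes. The median log2 change over the 7 genes was 2.14, -0.60 and -0.78 at these steps, against -0.12, -0.01 and -0.00 over all 14840. Between the ends of the series, WNT5B, WNT11 and WLS were higher in CD43+ cells than in H1 and 0 genes were lower, beside 14.6% and 22.5% of all tested genes. Because 3 of the 9 genes reach 1 FPKM in at most 3 libraries, these counts cover genes that passed the filter and not all 9.

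**Figure D3:**
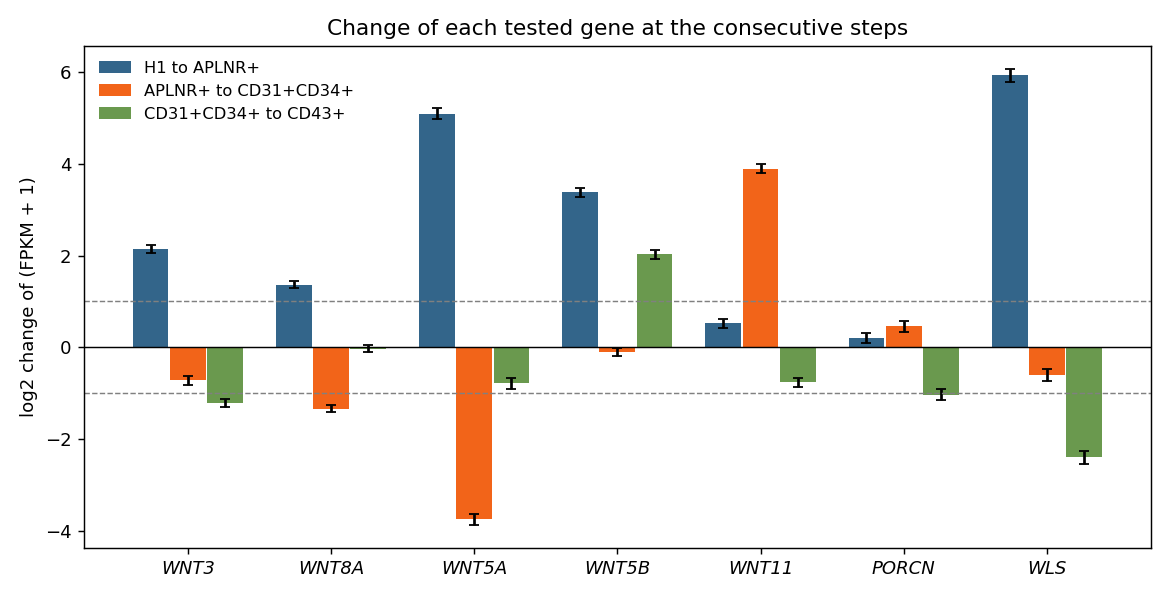
Log2 change of FPKM + 1 (vertical axis) of the 7 tested genes at each consecutive step (colors), with bars for the estimate, error bars for the SE from limma and dashed lines at the 2-fold limit. The rises of WNT5A (5.09) and WLS (5.93) to APLNR+ cells, of WNT11 (3.90) to CD31+CD34+ cells and of WNT5B (2.02) to CD43+ cells pass the upper line.

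In the plot of changes by step the longest bar stands at the first step for WNT3, WNT8A, WNT5A, WNT5B and WLS, at the next for WNT11 and at the last for PORCN. Replicate 1, the shallowest library of each population, was also set apart from replicates 2 and 3. WNT5A rose by 5.13 in replicate 1 and 5.08 in the others at the first step, and WLS by 6.01 and 5.89. At the last step WNT5B rose by 1.90 in replicate 1 and 2.09 in the others, and PORCN changed by -0.98 and -1.07. Every called change had the same direction in both parts. The calls were made on these same libraries, so this is no independent support for them.

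For the 7 tested genes the 3 genes of nearest profile were sought by the root mean square difference of centered log2(FPKM + 1) over the 12 libraries, among all tested genes. WNT5A was nearest to MESP1 (difference 0.26 on the log2 scale), a mesoderm transcription factor, followed by NPPB (0.31) and ATP12A (0.32). WNT3 was nearest to AMIGO2 (0.12), TFAP2C (0.16) and TRH (0.18). WNT8A was nearest to NPPA (0.07) and AL138899.2 (0.08). These named neighbors all had their highest mean in APLNR+ cells.

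WNT11 was nearest to GFI1 (0.16), a transcription factor of the endothelial-to-blood transition, SPNS2 (0.23) and STARD8 (0.24). WNT5B was nearest to FOS (0.45), MYCT1 (0.54) and CDKN1A (0.56). PORCN was nearest to RXRA (0.10), PYCR1 (0.11) and PIK3R2 (0.13), and WLS to COL5A1 (0.43), GATA6 (0.52) and ALPK2 (0.53). A near profile says only that levels moved alike over 12 libraries of 4 populations.

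The other genes of the pathway were taken from 8 lists with 62 genes, of which 45 were tested. Of these, 25 (55.6%) were called at a consecutive step, beside 45.3% of all tested genes. The called genes include WNT4, RSPO2 and FZD10. Each passed the filter only through the libraries of a single population and so adds nothing to the comparison with that share. LGR5 and TRABD2B, also called, would not have passed it without the 3 APLNR+ libraries and add nothing to it either. The shares of all genes given above for each step and direction also apply to the counts of the lists. Among 13 other Wnt ligands 1 was tested, WNT4, another ligand known for roles outside the β-catenin branch. It held 8.99, 9.43 and 7.06 FPKM in APLNR+ cells and at most 0.104 FPKM in every other library. WNT4 changed by 3.12 on the log2 scale and then by -3.22, and like WNT8A it passed the filter only through the 3 APLNR+ libraries, so that it had to differ once it was tested. It was highest in APLNR+ cells, as WNT5A and WNT8A were. Its share of the ligand sum there was 10.5 ± 1.30%.

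Of 7 genes for cargo transport and the retromer complex, which returns WLS to the Golgi, all were tested. From H1 to APLNR+ cells, where WLS rose by 5.93, 0 of the 7 were called. Of all tested genes 8.3% rose and 7.62% fell at this step, so a count of 0 among 7 is near these shares. TMED5 fell by 1.05 (limma adjusted p 1.19e-05) and the retromer core gene VPS35 by 1.10 (adjusted p 8.35e-07) from APLNR+ to CD31+CD34+ cells. Of the 3 enzymes that inactivate Wnt ligands, 2 rose and 1 fell at the first step, where 8.3% and 7.62% of all tested genes did. NOTUM, which removes the lipid that PORCN adds, rose by 2.48 (adjusted p 2.06e-08), from at most 0.0626 FPKM in H1 to between 4.10 and 5.62 FPKM in APLNR+ cells. TRABD2B rose by 1.01 (adjusted p 1.45e-05), and TRABD2A fell by 1.25 (adjusted p 0.000117). Without its APLNR+ libraries TRABD2B would not have passed the filter, so its rise adds nothing to the comparison with those shares.

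The receptors of these ligands moved in both directions. Of 10 Frizzled genes 9 were tested, and 3 rose and 1 fell from H1 to APLNR+ cells (8.3% and 7.62% of all tested genes), with FZD8 at 3.07 (limma adjusted p 1.03e-10) and FZD4 at 2.05 (adjusted p 1.92e-09). At the next step 1 rose, a gene that passed the filter only through the CD31+CD34+ libraries, and 3 fell (12.5% and 17.1% of all tested genes), with FZD7 at -2.62 (adjusted p 1.11e-10). Of 6 co-receptors, 1 rose at the first step, where 8.3% of all tested genes did, and 3 fell at each of the following, where 17.1% and 8.79% did. That riser was ROR2, the receptor most often tied to WNT5A, which went from 0.780 to 1.13 FPKM in H1 to between 35.8 and 38.5 FPKM in APLNR+ cells (log2 change 4.25, adjusted p 1.34e-11). ROR2 then fell by 2.77 (adjusted p 4.31e-10) and by 1.22 (adjusted p 8.12e-07).

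Of the 5 R-spondin receptors and their E3 ligases 3 were tested. LGR5 stood at 14.7, 18.9 and 20.1 FPKM in APLNR+ cells, where RSPO3 was highest, and at most 1.56 FPKM elsewhere. Without its APLNR+ libraries LGR5 would not have passed the filter. It rose by 4.19 (limma adjusted p 1.65e-10) and fell by 3.02 (adjusted p 2.69e-09) and 1.08 (adjusted p 3.49e-05), and LGR4 rose by 1.60 (adjusted p 2.91e-06) and fell by 2.22 (adjusted p 9.84e-08). In CD31+CD34+ cells, where RSPO2 was highest, LGR4 averaged 7.30 FPKM and LGR5 1.33 FPKM. Of 15 transducers and TCF/LEF factors, all tested, 2 rose and 1 fell from H1 to APLNR+ cells and 1 fell at each later step. These counts are near or below the shares of all tested genes, 8.3% raised and 7.62% lowered at the first step and 17.1% and 8.79% lowered at the later ones. LEF1, a nuclear partner of β-catenin, rose by 2.86 (adjusted p 1.85e-07), TCF7L1 fell by 1.22 (adjusted p 2.3e-06), and APC fell by 1.26 from APLNR+ to CD31+CD34+ cells (adjusted p 4.53e-06).

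**Figure D4:**
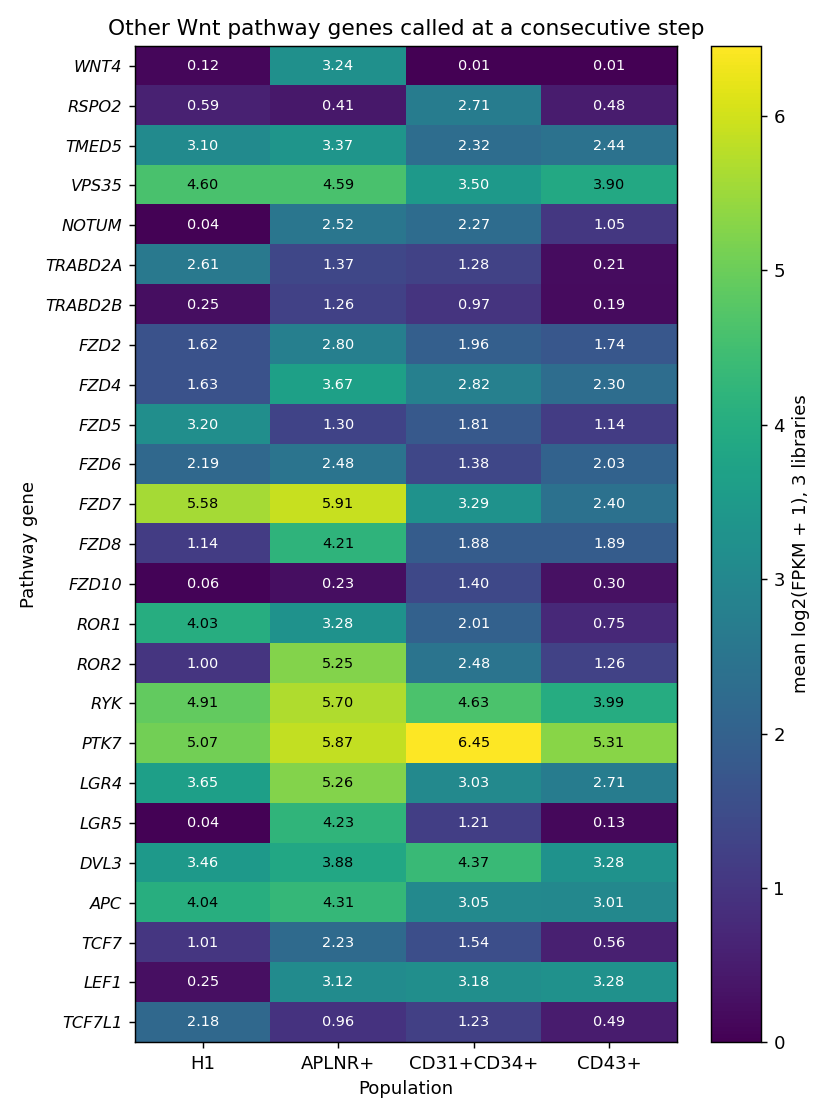
Mean log2(FPKM + 1) over 3 libraries (color, with the value in each cell) of the 25 other pathway genes called at a consecutive step, in the 4 populations. WNT4 (3.24), ROR2 (5.25) and LGR5 (4.23) are highest in APLNR+ cells and RSPO2 (2.71) in CD31+CD34+ cells.

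The heat map of the other pathway genes places ROR2, LGR5, LGR4, WNT4 and FZD8 with WNT5A and WLS in the population of their highest mean. NOTUM, TRABD2B, TMED5, FZD4, FZD7 and APC were also highest in APLNR+ cells, as were further genes of the map. This peak is thus shared by ligand-inactivating enzymes and is not particular to the ligands and their receptors. Other markers in that population were measured beside them. Pluripotency markers summed to between 399.9 and 452 FPKM in APLNR+ cells, most of it POU5F1 (338 to 377 FPKM, against 967 to 1028 in H1). DPPA4 was at 53.9 to 65.2 FPKM there, against 307 to 325 in H1. NANOG was at 7.79 to 10.5 FPKM, against 39.4 to 53.3 in H1. SOX2 was at most 0.319 FPKM, against 40.3 to 47.9 in H1. Of the endoderm markers, SOX17 stood between 16.3 and 19.6 FPKM in APLNR+ cells, CXCR4 between 5.00 and 6.93 FPKM and FOXA2 at most at 0.607 FPKM. Both CXCR4 (13.9 to 20.2 FPKM) and FOXA2 (0.795 to 0.971 FPKM) were higher in CD31+CD34+ cells. SOX17 was at most 0.155 FPKM in H1, 20.6 to 28.6 FPKM in CD31+CD34+ and 1.13 to 1.58 FPKM in CD43+ cells, and the part of pluripotency and endoderm transcripts in the ligand levels was not tested.

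None of the 9 genes shared a transcript stretch of 50 bases with another gene of GENCODE release 29. WLS overlaps the antisense gene GNG12-AS1 over 111 exonic bases and WNT11 overlaps AP000785.1 over 204, and strand use in the processing is not given in the sources used here. GNG12-AS1 held at most 0.179 FPKM and AP000785.1 was listed at 0 in all 12 libraries.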

How the data were processed

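RNA-seq had been made from total RNA of 12 samples (H1, APLNR+, CD31+CD34+ and CD43+ cells, 3 libraries each) with an Illumina TruSeq kit. Sample titles gave the population and the replicate number. As deposited, the values are FPKM in 1 table made by the authors, with 1 column per library and 1 gene symbol per line. The submitters' processing notes name BWA, Bowtie, RSEM and the hg19 build, without roles or versions. The gene models and whether values were scaled across libraries are not given in the sources used here. Depth is therefore known only in relative terms, and 3 libraries per population limit the precision.

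Of 58366 lines below the header, 1 held text and was left out. For symbols on several lines (345, WNT5A among them) the line with the highest mean was used. Values were transformed as log2(FPKM + 1) and genes with at least 1 FPKM in at least 3 libraries were kept. All 12 libraries entered 1 linear model in limma 3.58.1 (R 4.3.3) without covariates, moderated by eBayes with a mean-variance trend, and p-values were adjusted by Benjamini and Hochberg over all 14840 genes of each comparison. All adjusted p-values are from it, and all tests were two-sided. On simulated data for the step from H1 to APLNR+, 200 of 14840 genes were changed, each by 2 on the log2 scale. Of these 196 were recovered, and 1 unchanged gene was called. Noise was drawn as independent and normal, unlike in these data, where replicate 1 libraries deviated alike. The run thus checks the fitting steps and gives no error rate for the calls made here.

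The 9 genes, the pathway and marker lists and the thresholds were chosen with earlier results of these data known. All 9 genes are named, each with its 3 nearest genes where tested, and in each pathway list at most the 3 called genes with the largest change at a consecutive step. For WNT8A 1 of the nearest genes, and for the endoderm markers 1 gene and the list's sum, are not reported here. Promoter sequences are from RefSeq (GRCh38.p14), matched by symbol. Alternatives were other pseudocounts, filters, scalings, minimum changes, a replicate block and leaving out each library. Python 3.11.15 with pandas 2.3.3 and matplotlib 3.10.9 was used for tables and figures.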

Additional observations from a re-analysis of the deposited data

How the results depend on the processing

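Every call of the 9 genes rests on 3 libraries per population. Of 1008 recomputed changes of single genes, 978 kept their direction and their side of the threshold, 11 lost the call, 13 gained one and 6 changed sign. These 6 were differences of WNT8A among populations where it is near 0, none called. Quantile normalization gave 0.0051 from CD31+CD34+ to CD43+ cells and -0.018 for CD31+CD34+ against H1, and leaving out 1 library gave -0.060 to 0.0088 and -0.018 to 0.051 for these and -0.031 to 0.0021 for CD43+ against H1. Leaving out 1 library in turn gave between 4 and 5 called genes from H1 to APLNR+ cells, 2 to 3 from APLNR+ to CD31+CD34+ cells and 3 to 4 from CD31+CD34+ to CD43+ cells. WNT8A is then not tested when the library left out is any of the 3 APLNR+ ones, since it needs 3 libraries at 1 FPKM, and PORCN lost its call without CD43+ replicate 3.

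A pseudocount of 0.1 raised the count of all genes called to 3632 from H1 to APLNR+ cells and 3605 from CD31+CD34+ to CD43+ cells. A mean of at least 5 FPKM, which tests fewer genes, left 1193 and 1313 at these steps, with 3 and 2 of the Wnt genes, and 3309 for CD43+ against H1, 3752 for CD31+CD34+ against H1 and 3080 for CD43+ against APLNR+ cells. With no minimum change the counts of all genes were 8594, 10948 and 7961 at the 3 steps, 11076 for CD43+ against H1, 11473 for CD31+CD34+ against H1 and 10995 for CD43+ against APLNR+ cells, with 6 of the Wnt genes from APLNR+ to CD31+CD34+ cells and 5 for CD43+ against H1. With a 4-fold minimum they were 569, 875 and 454, then 1664, 1771 and 1303, with 2 of the Wnt genes at the last step and 3 in each of CD31+CD34+ against H1 and CD43+ against APLNR+ cells. Median-ratio scaling moved the median change of all genes between CD43+ cells and H1 from -0.10 to 0.02, and of the Wnt calls only that of PORCN from CD31+CD34+ to CD43+ cells was lost under a scaling. As shares of the 6 ligands alone, WNT3, WNT3A, WNT5A and WNT5B held 9.52%, 4.11%, 47.7% and 32.1% in H1, and WNT3, WNT5A and WNT5B 5.55%, 72.6% and 18.6% in APLNR+ cells. WNT11 held 55.9% in CD31+CD34+ cells, and WNT5B and WNT11 held 79.0% and 18.7% in CD43+ cells.

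With the replicate number as a replicate block, 5, 3 and 4 of the Wnt genes were called at the 3 steps, the same counts as without it, and 2369 genes in all at the first. Deviations of same-numbered libraries correlated between -0.02 and 0.43 (12 of 18 pairs over 0.1, against 7 of 36 pairs of other numbers), and all 6 replicate 1 pairs were over 0.1. Of the 12 libraries 7 correlated best with one of their own number. Replicate 1 libraries thus deviated alike. Of the same-numbered pairs of replicate 2, 3 of 6 were over 0.1, and of replicate 3 also 3 of 6. Pairs across numbers 2 and 3 correlated as well, as H1 replicate 3 with APLNR+ replicate 2 (0.289) and H1 replicate 2 with APLNR+ replicate 3 (0.276). No likeness by number was therefore shown beyond replicate 1. The labels do not say what a shared number stands for. The main model used no pairing, and the block left the counts of called Wnt genes at these steps unchanged.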

Other observations

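A further table line also carried the symbol WNT5A. It held 0.970, 1.05 and 0.937 FPKM in the 3 APLNR+ libraries and was listed at 0 in the other 9, so it was highest in the same population as the line used. Adding the lines changed no call of WNT5A.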
